A study of Homo sapiens with 12 samples.

Results

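The 10 chemokine ligands described here were measured in MDA-MB-231, a human breast cancer cell line, after transfection of Dicer plasmids. They are CXCL1, CXCL2, CXCL3, CXCL5, CXCL8, CXCL16, CCL2, CCL5, CCL20 and CX3CL1. The 10 genes were chosen by name from 64252 gene IDs, and 8 of them were among the 15094 genes with enough counts to be tested. CXCL5 and CCL5 were not. Messenger RNA was sequenced in 12 libraries, 3 from cells given wild-type Dicer and 3 from each of 3 groups given a Dicer variant, which the labels call mutation 1, mutation 2 and mutation 3 and do not describe further. Dicer trims hairpin precursors to mature microRNAs, which repress matching messages. All groups shared the cell line, the serum-containing medium and the Lipofectamine 3000 transfection, no deletion of the cells' own Dicer gene is named, and no cells without a Dicer plasmid were analysed here. The share of cells that took up a plasmid is not given, so fewer expressing cells and less RNA per cell cannot be told apart.

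Chemokines are small secreted proteins that guide migrating leukocytes along a gradient, and tumour cells release them too. CXCL1, CXCL2, CXCL3, CXCL5 and CXCL8 carry the Glu-Leu-Arg motif before the first cysteines, bind CXCR2 (CXCL8 also CXCR1) and attract neutrophils. CCL2 attracts monocytes through CCR2, CCL5 attracts T cells and monocytes, and CCL20 attracts cells that carry CCR6. CXCL16 and CX3CL1 are made as membrane proteins with a chemokine domain on a mucin stalk, and the proteases ADAM10 and ADAM17 release them. Many of these genes are switched on by nuclear factor kappa B (NF-kB) and their messages are short-lived.

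Library totals ran from 13507341 to 17078273 counts. Levels are given as CPM, counts scaled to library size, with library sizes adjusted by the trimmed mean of M-values (TMM). Wild-type replicate 1 stood apart: 3326 and 3374 genes differed more than 2-fold between it and wild-type replicates 2 and 3, against 242 between those 2 and 269 to 373 between libraries of a mutation group. Its summed CPM of the 10 ligands was 461, against 134 and 138 in the other wild-type libraries, 483 to 493 with mutation 1, 274 to 289 with mutation 2 and 228 to 230 with mutation 3. For the ligands, and for the counts over gene lists, comparisons with wild type are therefore given with and without that library. Values of other named genes are with all libraries unless stated. DICER1, which cannot be split into the cells' own and plasmid copies, stood at 27.4, 45.2 and 47.4 CPM in wild-type replicates 1, 2 and 3. It was at 42.2 to 45.3 CPM with mutation 1, 44.4 to 45.7 with mutation 2 and 38.8 to 40.1 with mutation 3. The line's markers VIM, CD44, AXL and CAV1 were at 516 CPM or more in every library and PGR at 0.0741 CPM or less. CDH1, the epithelial cadherin that this line is known to lack, ranged from 0.523 to 13.8 CPM, and ESR1 had 0 to 10 counts. ERBB2, which is low in this class of breast cancer, was at 68.4 to 112 CPM. Of 6 leukocyte markers, CD3E and MS4A1 were at 0 everywhere, while CD14 stood at 3.43 to 27 CPM. The summed level of the 6 was 4.27 to 20.6 CPM with wild type, 22.4 to 27.2 with mutation 1, 6.12 to 9.86 with mutation 2 and 6.22 to 7.64 with mutation 3. In the same order, 3 endothelial markers summed to 3.08 to 18.5, 0.422 to 0.878, 0.395 to 0.985 and 0.849 to 1.13 CPM, 4 fibroblast markers, with DCN at 0, to 16.5 to 21.7, 33.2 to 35.8, 12 to 15.2 and 18.6 to 21.7, and 5 luminal markers to 900 to 1811, 1470 to 1523, 1154 to 1208 and 1385 to 1414. The part of these markers in the results was not tested. Nothing in the labels says whether the 3 libraries of a group are separate cultures or repeats of one, and a p-value covers only the spread seen between them. Counting error alone gives a chi-square per degree of freedom near 1. Between libraries of a mutation group it was 1.29 to 3.39, and between wild-type replicates 2 and 3 it was 1.25. Wild-type replicate 1 gave 144 and 136 against those 2. P-values without wild-type replicate 1 thus rest on a spread not far above counting error.

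Upstream DNA is shown first because the neutrophil-attracting ligands share a regulatory element there. RefSeq promoters (GRCh38.p14) were found for 6 of the 10 ligands, and the 150 bases before each RefSeq start are printed 5′ to 3′ on the gene's strand. Only the CXCL1 start matches the GENCODE v29 coordinates given below. The other starts lie inside the GENCODE gene, so their printed stretches overlap it, wholly for CCL20 and in part for the rest. Capitals mark the kappaB sequence GGAANTTCC, where N is any base, the AP-1 sequence TGANTCA and the TATA box TATAAA.
CXCL8 (chr4:73740419-73740568, + strand): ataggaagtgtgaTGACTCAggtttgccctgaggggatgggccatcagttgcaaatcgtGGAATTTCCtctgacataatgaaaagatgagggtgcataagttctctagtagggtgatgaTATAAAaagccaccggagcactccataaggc
CXCL1 (chr4:73869243-73869392, + strand): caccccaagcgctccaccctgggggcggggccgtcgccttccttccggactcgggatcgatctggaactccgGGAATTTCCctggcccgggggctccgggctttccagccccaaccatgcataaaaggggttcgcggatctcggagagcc
CXCL2 (chr4:74099196-74099345, - strand): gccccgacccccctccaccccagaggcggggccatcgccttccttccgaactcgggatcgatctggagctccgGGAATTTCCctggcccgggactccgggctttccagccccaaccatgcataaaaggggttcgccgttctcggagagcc
CXCL3 (chr4:74038690-74038839, - strand): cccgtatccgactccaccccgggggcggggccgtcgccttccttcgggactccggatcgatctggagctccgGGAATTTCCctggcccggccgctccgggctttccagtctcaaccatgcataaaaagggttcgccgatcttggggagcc
CXCL5 (chr4:73998678-73998827, - strand): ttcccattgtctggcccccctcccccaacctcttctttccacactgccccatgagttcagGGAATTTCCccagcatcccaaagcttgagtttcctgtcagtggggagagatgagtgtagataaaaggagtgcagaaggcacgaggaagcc
CCL20 (chr2:227813692-227813841, + strand): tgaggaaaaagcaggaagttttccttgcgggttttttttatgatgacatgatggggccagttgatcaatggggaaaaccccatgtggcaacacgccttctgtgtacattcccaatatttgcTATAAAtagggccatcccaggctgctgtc
The kappaB letters lay 91 to 83 bases before the start of CXCL8, 78 to 70 before CXCL1 and CXCL3, 77 to 69 before CXCL2 and 90 to 82 before CXCL5, each time as GGAATTTCC. In all, 0.826% of 35116 RefSeq promoters hold these letters on either strand within 250 bases of the start. CCL20 has no such match, but has one to the broader NF-kB consensus at 79 to 70 bases before its start. Of all promoters, 5.21% match that consensus, which overlaps the kappaB letters in CXCL1, CXCL2, CXCL3 and CXCL5. CXCL8 alone of the 6 holds the AP-1 letters, 137 to 131 bases before its start, as 6.57% of promoters do on either strand. TATAAA stands 31 to 26 bases before CXCL8 and 29 to 24 before CCL20, and is found on the given strand in 6.8% of promoters. The printed stretches of CXCL1 and CXCL2 are identical at 134 of 150 aligned bases, CXCL1 and CXCL3 at 133, and CXCL1 and CXCL8 at 74. A match is a run of letters, and binding was not measured.

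These genes lie together on chromosome 4 (hg38, GENCODE v29): CXCL8 (ENSG00000169429) at chr4:73740506-73743716 and CXCL1 (ENSG00000163739) at chr4:73869393-73871242 on the plus strand, then CXCL5 (ENSG00000163735) at chr4:73995642-73998779, CXCL3 (ENSG00000163734) at chr4:74036589-74038807 and CXCL2 (ENSG00000081041) at chr4:74097035-74099293 on the minus strand. CXCL6, PPBP and PF4V1 between them had no count in any library, and PF4 at most 10. So 4 of the 9 protein-coding genes from CXCL8 to CXCL2 carried nearly all of the cluster's counts. Per kilobase of exon, which allows genes to be compared, CXCL1 was the highest of the 9 with wild type (66.1 CPM per kb) and CXCL8 with mutation 1 (65.8), mutation 2 (64.2) and mutation 3 (30.4).

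**Figure D1:**
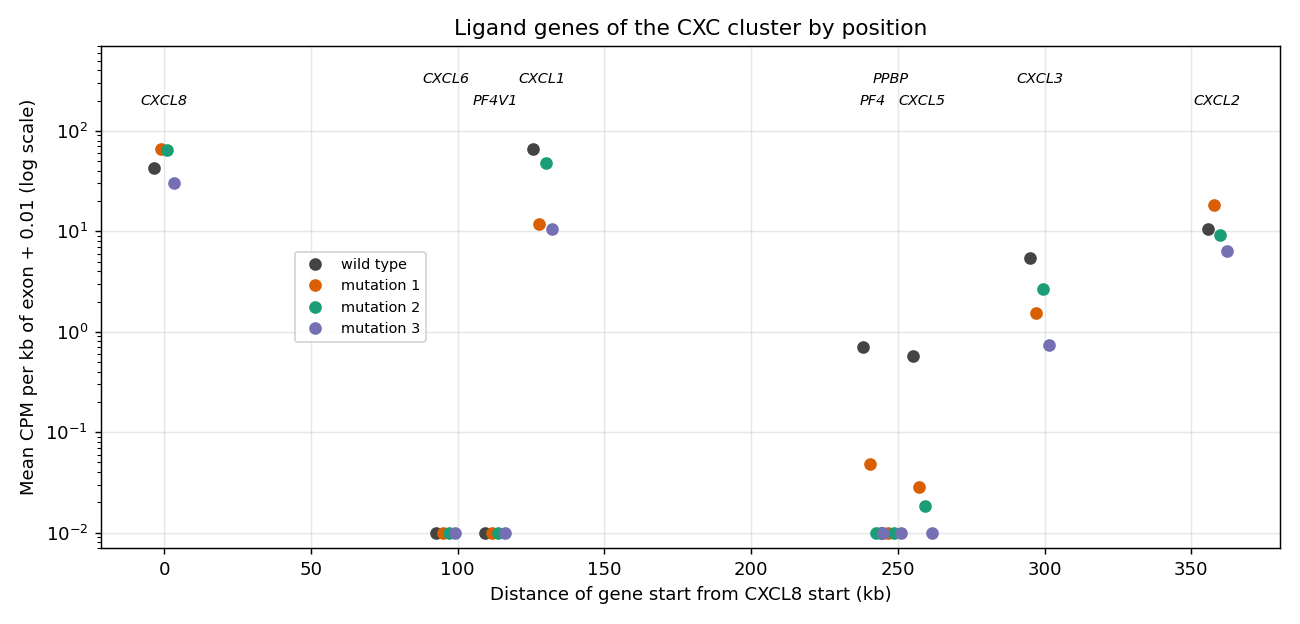
Mean level in each group (CPM per kb of exon plus 0.01, log scale) of the 9 protein-coding genes from CXCL8 to CXCL2, by distance of the gene start from the CXCL8 start in kb. Points of a gene are set slightly apart by group. CXCL8, CXCL1, CXCL3 and CXCL2 are above the genes between them in every group, and mutation 1 is highest for CXCL2 and near the bottom for CXCL1.

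CXCL8, the main neutrophil attractant, had the highest or the second highest level per kilobase of the 10 in every group. Its CPM was 186, 54 and 51 in wild-type replicates 1, 2 and 3, 146, 153 and 151 with mutation 1, 152, 148 and 137 with mutation 2, and 67.2, 71.4 and 69 with mutation 3. The mutation 1 and mutation 2 libraries overlapped, mutation 3 lay below both, and the wild-type libraries straddled all of them. No comparison with wild type passed (log2 differences of 0.63 ± 0.39 (SE), 0.59 ± 0.39 and -0.49 ± 0.39 for mutations 1, 2 and 3, with adjusted p of 0.176, 0.264 and 0.308 in edgeR's quasi-likelihood test with Benjamini-Hochberg adjustment, the test used throughout). CXCL8 was higher with all 3 mutations once wild-type replicate 1 was left out, by 1.51 ± 0.05, 1.48 ± 0.05 and 0.40 ± 0.05, and the sign for mutation 3 turned. Against that replicate alone, mutations 1 and 2 were lower, by -0.33 and -0.36, so the direction depends on which wild-type library serves as control. Between mutations, CXCL8 was 2.16-fold higher with mutation 1 than with mutation 3 (adjusted p = 0.0429). It was 2.11-fold lower with mutation 3 than with mutation 2 (0.0408). Both calls were lost when any 1 mutant library was left out (adjusted p of 0.0611 to 0.117). Both passed without wild-type replicate 1 (6.33e-56 and 5.51e-55), where the SE was 0.04 in place of 0.40.

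CXCL1 was lowest with mutations 1 and 3. Its CPM was 148, 52.2 and 56.4 with wild type, 13.6, 16.2 and 15.9 with mutation 1, 63.8, 59.4 and 61.7 with mutation 2, and 15, 13.4 and 13 with mutation 3. The mutation 1 and 3 libraries overlapped each other and lay below every other library. CXCL1 fell 5.61-fold with mutation 1 (log2 -2.49 ± 0.34, adjusted p = 7.89e-05) and 6.2-fold with mutation 3 (-2.63 ± 0.35, 8.13e-05). These falls were 3.55-fold and 3.9-fold without wild-type replicate 1. Mutation 2 did not pass against wild type (-0.47 ± 0.32, adjusted p = 0.269), and without wild-type replicate 1 it was higher by 0.19 ± 0.06 (adjusted p = 0.00173). Against mutation 2, where wild-type libraries enter only the estimate of spread, CXCL1 was 4.04-fold lower with mutation 1 (adjusted p = 0.000357) and 4.46-fold lower with mutation 3 (0.000348).

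CXCL3, a close relative of CXCL1, separated all 4 groups. Its CPM was 14.7, 10.2 and 10.9 with wild type, 3.66, 2.95 and 3.51 with mutation 1, 6.48, 5.38 and 5.92 with mutation 2, and 1.38, 1.24 and 2.22 with mutation 3. No library of one group reached the range of another, in the order wild type, mutation 2, mutation 1, mutation 3. CXCL3 fell 3.52-fold with mutation 1 (adjusted p = 2.24e-05), 2.01-fold with mutation 2 (0.00315) and 7.4-fold with mutation 3 (2.15e-06), and each fall passed without wild-type replicate 1 too (3.11-fold, 1.77-fold and 6.56-fold). It was also lower with mutation 1 than with mutation 2 (log2 -0.81 ± 0.22, adjusted p = 0.00658) and higher with mutation 1 than with mutation 3 (1.07 ± 0.24, 0.00429).

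CXCL2, the third of these relatives, ran differently. Its CPM was 22.8, 11.5 and 13.3 with wild type, 27.9, 26.5 and 27.9 with mutation 1, 13, 14.6 and 13.9 with mutation 2, and 8.83, 9.87 and 9.85 with mutation 3. Mutation 1 lay above all other libraries and mutation 3 below them, while mutation 2 overlapped wild type. CXCL2 rose 1.73-fold with mutation 1 (adjusted p = 0.00509) and fell 1.67-fold with mutation 3 (0.011). Without wild-type replicate 1 the rise was 2.23-fold and the fall 1.29-fold. For mutation 2 the log2 difference was -0.20 ± 0.21 (adjusted p = 0.484), and 0.17 ± 0.10 (0.121) without that library. Against mutation 2, CXCL2 was 1.98-fold higher with mutation 1 (adjusted p = 0.00143), and against mutation 3 it was 2.88-fold higher (0.000198). Mutation 3 did not pass against mutation 2 with all libraries (log2 -0.54 ± 0.21, adjusted p = 0.0505), and did without wild-type replicate 1 (2.92e-07). Thus with mutation 1 CXCL2 was higher and CXCL1 and CXCL3 were lower, in each case against wild type and against mutation 2. The exons of the 3 genes share 50-base stretches with one another (5.73% of such windows in CXCL1, 9.24% in CXCL2 and 5.26% in CXCL3), so a small share of reads could have been dropped or misplaced.

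CXCL5, another neutrophil attractant, had 64 counts (4.2 CPM) in wild-type replicate 1, 1 and 0 in wild-type replicates 2 and 3, 2, 0 and 0 with mutation 1, 0, 1 and 0 with mutation 2 and none with mutation 3. It was not tested, and any level above 3 counts rests on wild-type replicate 1.

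Messages of these ligands are known for AU-rich elements, repeats of AUUUA in the 3′ untranslated region that mark a message for rapid decay. The densest stretch of 30 bases or fewer is shown for the 4 abundant neutrophil attractants, written as DNA from GENCODE v29 transcripts with each ATTTA in capitals.
CXCL8: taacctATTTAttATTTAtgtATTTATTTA
CXCL1: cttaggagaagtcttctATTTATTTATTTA
CXCL2: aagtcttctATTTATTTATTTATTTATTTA
CXCL3: ttacgagggttctacttATTTAtgtATTTA
CXCL2 has 10 ATTTA in its 3′ untranslated region and CXCL8 9, CXCL3 7 and CXCL1 5, counting overlaps. CXCL5 has 11, CCL20 3, CX3CL1 2, CXCL16 and CCL2 1 each, and CCL5 none. Of 19132 genes, 40.7% have 3 or more. The longer TTATTTATT occurs 5 times in CXCL2, 3 times in CXCL1 and once each in CXCL3, CXCL8 and CX3CL1, and in 8.13% of genes. CXCL1, which fell, and CXCL2, which rose with mutation 1, both carry it, and message stability was not measured here.

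**Figure D2:**
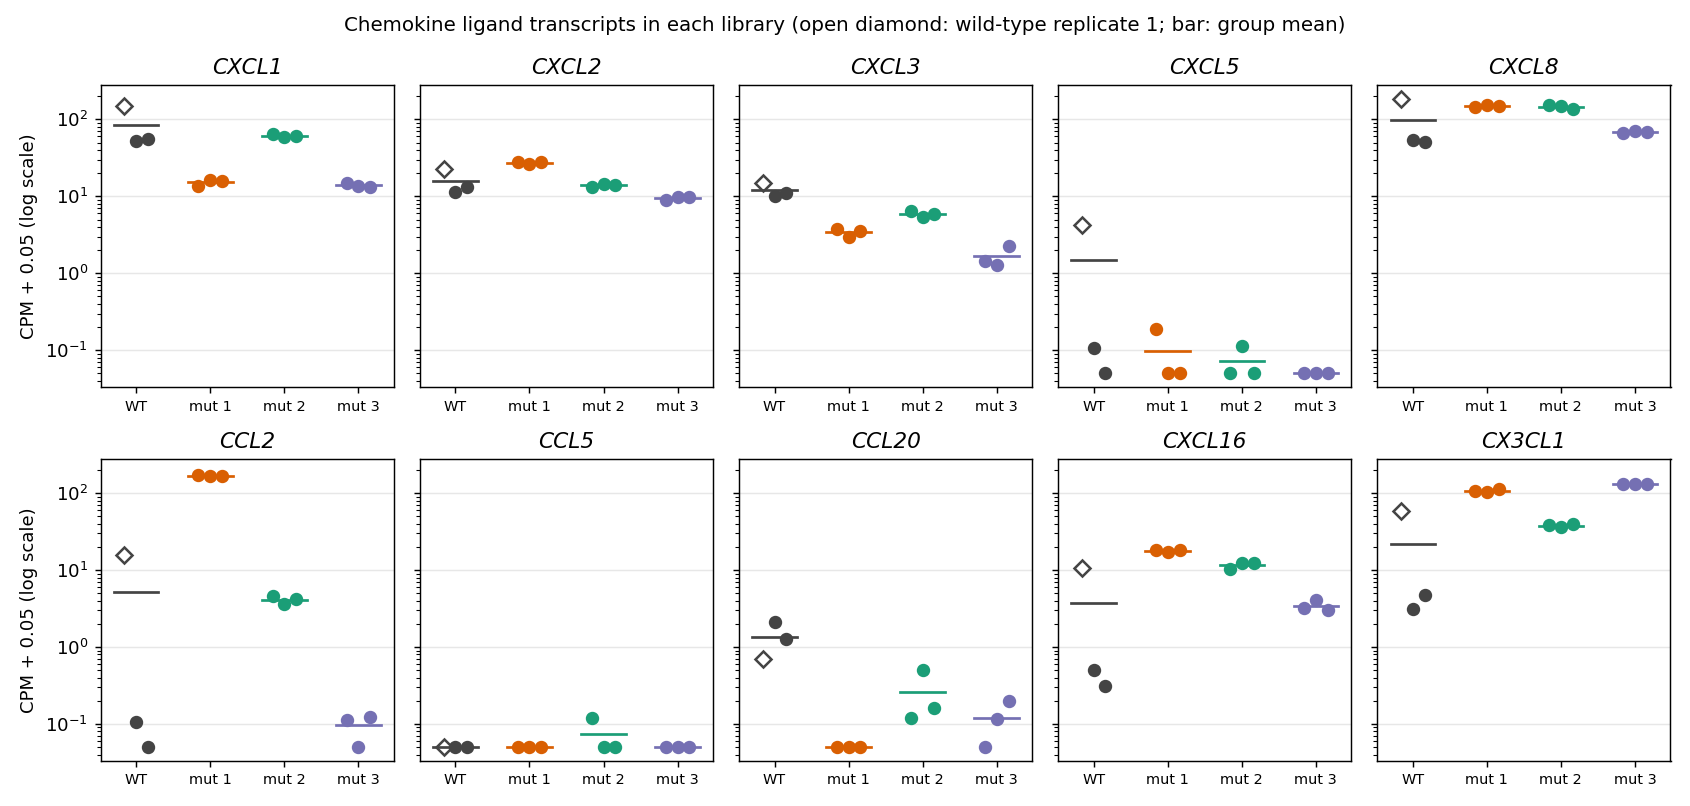
CPM plus 0.05 (log scale) of the 10 ligands in each of the 12 libraries by group, with bars at group means and the open diamond for wild-type replicate 1. CCL2 runs from 165 CPM or more with mutation 1 to 0.0741 or less with mutation 3, and wild-type replicate 1 is far above the other wild-type libraries for CXCL5, CXCL16, CCL2 and CX3CL1.

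CCL2 (ENSG00000108691, chr17:34255218-34257203, plus strand), the monocyte attractant, had the widest range of the 10. Its CPM was 170, 165 and 165 with mutation 1, 4.5, 3.57 and 4.17 with mutation 2, and 0.0626, 0 and 0.0741 with mutation 3, that is 2 counts in all. In wild type it was 15.6, 0.0559 and 0, or 238, 1 and 0 counts. The 3 mutation groups did not overlap, and wild type spanned the range from mutation 3 to above mutation 2. With mutation 1 CCL2 was 32.5-fold higher than with wild type (log2 5.02 ± 1.03, adjusted p = 0.00127) and 40.8-fold higher than with mutation 2 (5.35 ± 1.05, 0.00103). Without wild-type replicate 1 the ratio to wild type was 5560 (998 to 220000), against a single count, and against that replicate alone CCL2 was 10.6-fold higher. Its ratio to mutation 3 was 3730, with a 95% exact (Clopper-Pearson) interval of 1030 to 30800 that covers counting error only. With mutation 2 the log2 difference from wild type was -0.33 ± 1.07 (adjusted p = 0.837), and without wild-type replicate 1 it was 6.74 ± 0.48, a ratio of 136 (24.1 to 5400) to a single count. With mutation 3 CCL2 was lower than wild type by a ratio of 110 (30.2 to 914; adjusted p = 0.0293), a call lost without any 1 mutation 3 library (0.0726 to 0.0828). With wild-type replicate 1 left out, each group had 1 or 2 counts in all, so no fold is given (adjusted p = 0.767). Against mutation 2 it was lower with mutation 3, by a ratio of 91.3 (24.9 to 759), with an adjusted p of 0.0469. That adjusted p lay between 0.0622 and 0.122 when any 1 mutant library was left out. It was 9.58e-31 without wild-type replicate 1.

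CCL20 (ENSG00000115009, chr2:227805739-227817564, plus strand), the ligand of CCR6, was scarce. Its counts were 10, 37 and 19 with wild type, 0, 0 and 0 with mutation 1, 1, 7 and 2 with mutation 2, and 0, 1 and 2 with mutation 3. Every wild-type library was above every mutant one. No mutant library held more than 7 counts, so CCL20 passed the low-count filter only through its wild-type libraries. That selection favours calls of lower CCL20 with the mutations. Against wild type CCL20 was at least 6.06-fold lower with mutation 1, taking 3 counts per library as the floor (adjusted p = 0.000934). It was lower by 2.61 ± 0.70 on the log2 scale with mutation 2 (adjusted p = 0.0184), a call that was lost without wild-type replicate 2 (0.0663), mutation 2 replicate 1 (0.071) or mutation 2 replicate 3 (0.0801). With mutation 3 the ratio of wild type to mutant was 20.3 (6.64 to 101) with an adjusted p of 0.00296. Unlike most ligands, CCL20 was not raised in wild-type replicate 1, and all 3 falls passed without it (at least 7.58-fold lower with mutation 1, by 2.93 ± 0.49 on the log2 scale with mutation 2, and by a ratio of 25.1 (8.14 to 125) with mutation 3). It was also lower with mutation 1 than with mutation 2 (adjusted p = 0.0456), a call lost without wild-type replicate 3, mutation 2 replicate 2, mutation 3 replicate 2 or any 1 mutation 1 library (0.0566 to 0.126).

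CCL5 (ENSG00000271503, chr17:35871491-35880793, minus strand) could not be read. It had 1 count in 1 mutation 2 library and was listed at 0 in the other 11. Its neighbours were nearly empty as well. Of the 46 protein-coding genes from TAF15 to MRPL45, none had a median count of 100 or more over the 12 libraries, among them genes that every cell uses, such as AATF (1 to 9 counts) and GGNBP2 (0 to 6). AP2B1, on the side before TAF15, had 6482 to 15820. The cause was not tested. The values for CCL3, CCL4 and other ligand genes of that stretch carry the same limit. CCL2 lies outside it.

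**Figure D3:**
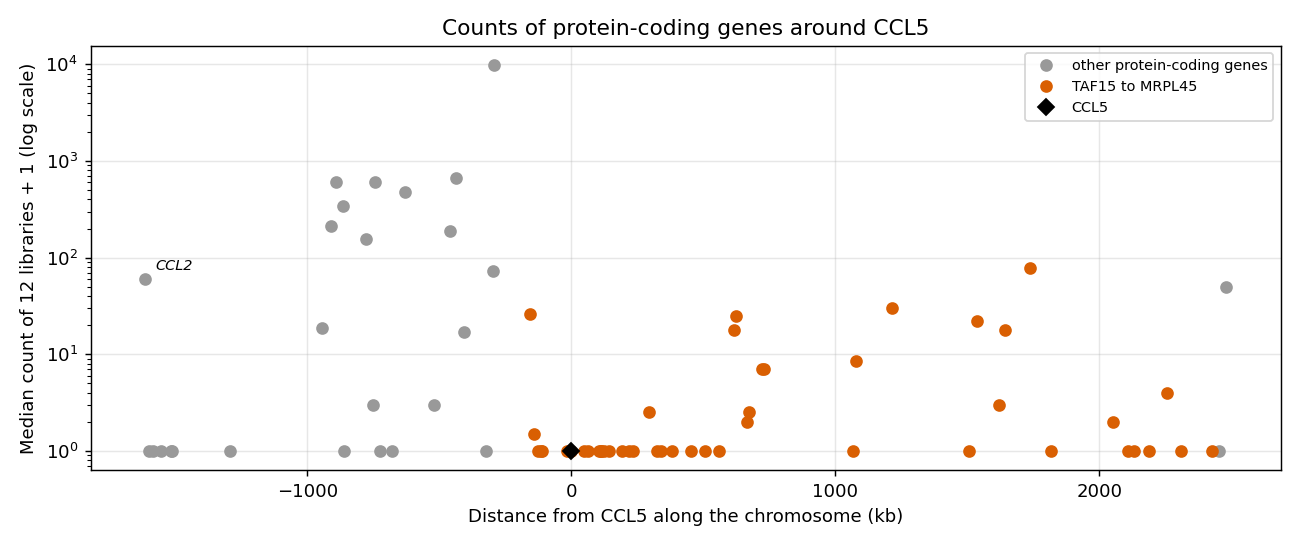
Median count over the 12 libraries plus 1 (log scale) of protein-coding genes within 2500 kb of CCL5, by distance along the chromosome in kb. The 46 genes from TAF15 to MRPL45, with CCL5 as the diamond, stay at a median of 77.5 or less, while AP2B1 to their left is at 9800.

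CX3CL1 (ENSG00000006210, chr16:57372458-57385048, plus strand), the membrane-bound ligand of CX3CR1, was high with mutations 1 and 3. Its CPM was 58.4, 3.07 and 4.72 with wild type, 106, 102 and 112 with mutation 1, 38, 36.5 and 39.1 with mutation 2, and 133, 130 and 131 with mutation 3. The mutation groups did not overlap, in the order mutation 3, mutation 1, mutation 2. Mutation 1 did not pass against mutation 3 with all libraries (log2 -0.30 ± 0.74, adjusted p = 0.778), and did without wild-type replicate 1 (3.15e-11). Wild-type replicate 1 lay above mutation 2 and the other wild-type libraries far below it. CX3CL1 rose 4.86-fold with mutation 1 (log2 2.28 ± 0.79, adjusted p = 0.0245) and 5.97-fold with mutation 3 (2.58 ± 0.80, 0.0169). The first of these calls was lost without wild-type replicate 3 or any 1 mutation 1 library (0.0531 to 0.059). Without wild-type replicate 1 the same folds were 27.8 and 34.2. Mutation 2 gave 0.79 ± 0.78 (adjusted p = 0.456) with all libraries, 3.31 ± 0.10 (5.45e-64) without wild-type replicate 1, and -0.63 ± 0.07 against that replicate alone. With all libraries, neither mutation 1 (1.49 ± 0.77, adjusted p = 0.109) nor mutation 3 (1.79 ± 0.77, 0.0727) passed against mutation 2, and both did without wild-type replicate 1 (6.1e-63 and 5.63e-74), where the SE was 0.05.

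CXCL16 (ENSG00000161921, chr17:4733526-4739922, minus strand), the membrane-bound ligand of CXCR6, had its highest values with mutation 1. Its CPM was 10.5, 0.447 and 0.259 with wild type, 18, 17.1 and 18.4 with mutation 1, 10.3, 12.4 and 12.4 with mutation 2, and 3.13, 4.05 and 2.96 with mutation 3. Mutation groups did not overlap, and wild-type replicate 1 lay within the mutation 2 range while the other wild-type libraries lay below all mutants. With all libraries, neither mutation 1 (log2 0.61 ± 0.78, adjusted p = 0.513) nor mutation 3 (-1.78 ± 0.86, 0.102) passed against mutation 2. Both did without wild-type replicate 1 (8.06e-09 and 4.73e-26). CXCL16 rose 4.84-fold with mutation 1 (log2 2.27 ± 0.85, adjusted p = 0.0335), a call that was lost when any 1 library other than wild-type replicate 1 or a mutation 2 library was left out (0.0532 to 0.0759). Without wild-type replicate 1 it was higher with each mutation, by 5.60 ± 0.22, 5.00 ± 0.24 and 3.21 ± 0.33, where mutation 3 had stood at -0.12 ± 0.89 (adjusted p = 0.919). It was 5.25-fold higher with mutation 1 than with mutation 3 (adjusted p = 0.0441), a call lost without any 1 mutant library (0.0657 to 0.128). That comparison passed without wild-type replicate 1 (2.92e-39).

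**Figure D4:**
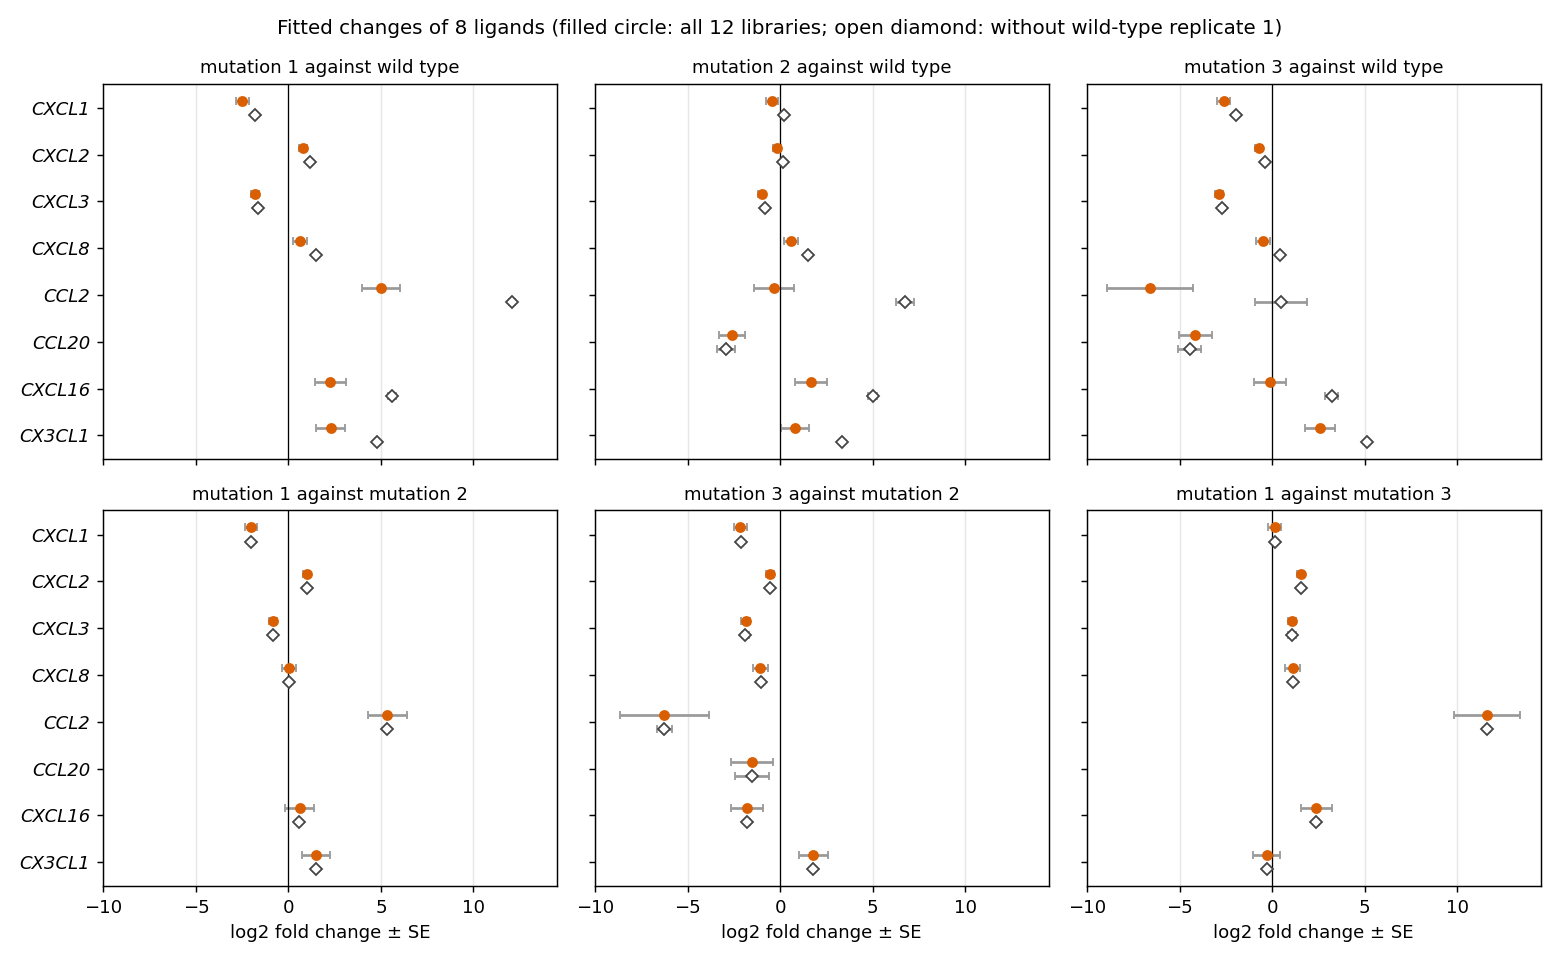
Fitted log2 fold changes (± SE) of the 8 tested ligands in the 6 comparisons, with all 12 libraries (filled circles) and without wild-type replicate 1 (open diamonds). CCL20 is not drawn where mutation 1 enters, since it had no count there. Between mutations the fold changes of the 2 sets nearly coincide, but the SEs are smaller without wild-type replicate 1. For CX3CL1 in mutation 1 against mutation 2 the SE is 0.05 in place of 0.77. Against wild type the fold changes are far apart for CCL2, CXCL16 and CX3CL1.

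The counts of called ligands are set beside the share of all 15094 tested genes called in that direction, which was large. With mutation 1 against wild type, 4 of the 10 ligands were higher (CXCL2, CXCL16, CCL2, CX3CL1; 32.5% of all genes) and 3 lower (CXCL1, CXCL3, CCL20; 36.5%). With mutation 2, none was higher (16.9%) and 2 were lower (CXCL3, CCL20; 20.1%). At an unadjusted p under 0.05, edgeR gave 0 higher as well. DESeq2, which gave an adjusted p for 5 of the 8 ligands and none for CXCL16, CCL2 and CX3CL1, called 0 of those 5 higher. With mutation 3, 1 was higher (CX3CL1; 28.1%) and 5 lower (CXCL1, CXCL2, CXCL3, CCL2, CCL20; 31.2%). The median log2 difference of the 8 tested ligands was 0.71, -0.26 and -1.68, beside -0.04, -0.01 and -0.01 for all genes. Without wild-type replicate 1 the ligand medians were 1.34, 0.83 and 0.01, so the values for mutations 2 and 3 depend on that library. The 3 comparisons share their wild-type libraries. CCL20 counts as lower in each of them, and it was tested only because its wild-type libraries passed the low-count filter. Leaving out wild-type replicate 1 gave 5 higher and 3 lower with mutation 1 (40.2% and 42.5% of 15806 genes), 5 and 2 with mutation 2 (33.0% and 34.9%), and 3 and 4 with mutation 3 (38.2% and 38.8%).

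Between mutations, wild type serves only to estimate the spread. Mutation 1 against mutation 2 had 2 ligands higher (CXCL2, CCL2; 31.8% of all genes) and 3 lower (CXCL1, CXCL3, CCL20; 33.6%). Mutation 3 against mutation 2 had none higher (25.7%) and 4 lower (CXCL1, CXCL3, CXCL8, CCL2; 27.2%). At an unadjusted p under 0.05, edgeR gave 1 higher there, CX3CL1, which DESeq2 could not call, and DESeq2 called 0 of its 5 higher. Mutation 1 against mutation 3 had 5 higher (CXCL2, CXCL3, CXCL8, CXCL16, CCL2; 20.2%) and none lower (22.5%), with 0 lower at an unadjusted p under 0.05 and 0 of 5 by DESeq2. Without wild-type replicate 1 these became 4 and 3 (39.6% and 40.6%), 1 and 6 (36.3% and 36.6%), and 5 and 1 (32.9% and 33.6%). Across the 4 groups, 7 of 8 tested ligands differed in the overall F test, all but CXCL8 (adjusted p = 0.0657), as did 83.0% of all genes. With so many genes called, nothing particular to the ligands is read from these counts.

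Within a group the order of levels per kilobase of exon also differed. With wild type the highest means were CXCL1 at 66.1 ± 41.9 CPM per kb (SD, n = 3) and CXCL8 at 42.7 ± 33.9, and CXCL1 was the higher of the pair in each library (114 against 81.8, 40.3 against 23.7 and 43.5 against 22.4). Mutation 1 was led by CCL2 at 83.9 ± 1.67, ahead of CXCL8 at 65.8 ± 1.61, and then CXCL2 at 18.3 ± 0.529 and CX3CL1 at 17.8 ± 0.827, which overlap within their SDs. Mutation 2 was led by CXCL8 at 64.2 ± 3.45 and CXCL1 at 47.6 ± 1.73. With mutation 3 CXCL8 at 30.4 ± 0.926 was followed by CX3CL1 at 21.9 ± 0.262 and CXCL1 at 10.6 ± 0.837. The levels of CXCL16 and CXCL3 were at most 6.38 and 5.37 CPM per kb in any group mean, and those of CCL20 and CXCL5 at most 0.827 and 0.559.

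The matching receptors were scarce. CXCR1 and CCR6 had no count in any library and CXCR2 and CX3CR1 had 1 each. CCR1 reached 0.67 CPM, CCR3 1.01 and CXCR6 0.958. CCR2, the CCL2 receptor, was at 0 in all wild-type libraries and at 0.876, 0.719 and 0.741 CPM with mutation 3, which is 10 to 14 counts. For this and the following gene lists, the background is the share of all genes called higher and lower against wild type: 32.5% and 36.5% with mutation 1, 16.9% and 20.1% with mutation 2, and 28.1% and 31.2% with mutation 3, and without wild-type replicate 1 the larger shares given above. Of 23 chemokine receptor genes 6 were tested, and 3 were higher and 1 lower with mutation 1, 1 and 0 with mutation 2, and 1 and 0 with mutation 3, with median log2 differences of 1.26, 0.9 and 0.48. With wild-type replicate 1 left out, 7 were tested and the counts were 5 and 2, 4 and 2, and 3 and 1, with medians of 3.03, 2.46 and 2.35. ACKR3, a decoy receptor for CXCL11 and CXCL12, stood at 2.36, 0 and 0 CPM with wild type, 19.4, 18.7 and 18.8 with mutation 1, 7.6, 6.42 and 6.32 with mutation 2, and 0.0626, 0 and 0.0741 with mutation 3. It was higher with mutation 1 (log2 4.63 ± 0.83, adjusted p = 0.000492) and mutation 2 (3.15 ± 0.83, 0.0128) than with wild type. Without wild-type replicate 1, which held its only wild-type counts, it was at least 105-fold and 37.5-fold higher. CCRL2, a receptor that binds chemerin without signalling, fell with mutation 1 (log2 -1.52 ± 0.35, adjusted p = 0.0027), and by -0.82 ± 0.09 without wild-type replicate 1. CCR10, a receptor of CCL27 and CCL28, had 3 to 26 counts in a library and rose with mutation 1 (1.20 ± 0.36, 0.0118).

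Of 33 other chemokine ligands, 20 had no count in any library and 3 were tested. The 20 include CCL3, CCL4 and others of the stretch around CCL5, whose levels could not be read. CCL28, a ligand of CCR10, was the steadiest at 7.7 to 12.8 CPM. It was higher with mutation 1 (log2 0.34 ± 0.13, adjusted p = 0.0402) and mutation 2 (0.40 ± 0.13, 0.0328). CXCL11, an interferon-induced ligand of CXCR3, had at most 24 counts. It was lower with mutation 1, which had 2 counts in all, by a ratio of 16.7 (4.33 to 143; adjusted p = 0.00115), and with mutation 3 (log2 -3.05 ± 0.68, 0.00279). CCL26, an eosinophil attractant, had at most 27 counts in a library. It was lower with all 3 mutations (log2 -1.77, -3.39 and -2.37, adjusted p of 0.0062, 0.00101 and 0.00193).

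Calls among NF-kB pathway genes went in both directions. Of 16 subunits, inhibitors and co-factors, all tested, 8 were higher and 6 lower with mutation 1, 7 and 2 with mutation 2, and 7 and 5 with mutation 3, with median log2 differences of 0.23, 0.22 and 0.15. The counts without wild-type replicate 1 were 10 and 6, 10 and 4, and 10 and 6. NFKBIA, the inhibitor that holds NF-kB in the cytoplasm and is itself an NF-kB target, fell with each mutation (log2 -0.81, -0.52 and -1.38, each ± 0.07, adjusted p of 1.64e-06, 0.000241 and 8.66e-08). BCL3, a nuclear co-factor, rose with mutation 1 (1.31 ± 0.07, adjusted p = 5.43e-08) and mutation 3 (0.45 ± 0.07, 0.000233) and fell with mutation 2 (-0.45 ± 0.07, 0.00064). NFKB1, which encodes p50, was lower with mutations 1 and 3 (-1.02 and -0.76, adjusted p of 2.11e-06 and 3.17e-05). REL rose with all 3 (3.13, 1.74 and 2.26, adjusted p of 5.06e-07, 0.00025 and 1.1e-05).

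Among 11 other transcription factors of chemokine promoters, 7 were higher and 2 lower with mutation 1, 3 and 3 with mutation 2, and 5 and 2 with mutation 3, with medians of 0.64, -0.23 and 0.42. With wild-type replicate 1 left out these counts were 8 and 3, 4 and 7, and 7 and 2. CEBPB, which acts beside NF-kB on cytokine promoters, had 514, 534 and 539 CPM with mutation 1 and 98.9 to 108 with wild type, 76 to 80.3 with mutation 2 and 162 to 175 with mutation 3, with no overlap between groups. It rose by 2.36 ± 0.06 on the log2 scale with mutation 1 (adjusted p = 6.3e-10). JUNB rose with mutation 1 (1.50 ± 0.06, 1e-08 adjusted) and JUN, the other AP-1 gene among the 4 named, fell (-1.45 ± 0.07, adjusted p = 2.98e-08). HIF1A, the hypoxia factor, rose with mutation 1 (1.53 ± 0.14, adjusted p = 3.41e-06) and fell with mutation 2 (-0.83 ± 0.14, 0.00109). Of 16 inducing cytokines and receptors, 14 were tested, and 4 were higher and 6 lower with mutation 1, 6 and 2 with mutation 2, and 5 and 4 with mutation 3, with medians of -0.15, 0.38 and -0.01. They were 7 and 6, 10 and 2, and 6 and 5 without wild-type replicate 1. IL1RAP, the shared subunit of interleukin-1 receptors, rose with mutation 1 (2.18 ± 0.14, adjusted p = 1.93e-07) and mutation 3 (2.12 ± 0.14, 5.04e-07). The adaptor MYD88 fell with both (-0.95 and -0.82, adjusted p of 1.71e-07 and 1.03e-06), as did TLR4 (-0.86 and -0.72, adjusted p of 1.55e-06 and 9.74e-06) and TLR3 (-1.18 and -1.95, 6.69e-05 and 3.87e-06). TNF, the classic inducer, was listed at 0 in every library, and so were neighbours that every cell uses, such as BAG6 and CSNK2B, so its level could not be read.

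Of 13 genes for proteins that free ligands from the cell surface or retain them there, all tested, 5 were higher and 3 lower with mutation 1, 2 and 3 with mutation 2, and 2 and 6 with mutation 3, with medians of 0.1, 0.11 and -0.5. The counts were 8 and 4, 8 and 4, and 5 and 6 without wild-type replicate 1. ADAM10 and ADAM17, the proteases that release CX3CL1 and CXCL16, were picked for naming after their values were seen. ADAM17 rose with all 3 mutations (log2 0.62, 0.58 and 0.87, adjusted p of 0.0033, 0.0108 and 0.00046), and ADAM10 rose with mutations 1 and 3 (0.76 and 0.75, adjusted p of 0.0131 and 0.0166). Syndecans carry the heparan sulfate that holds chemokines. SDC2 rose with mutation 1 (0.49 ± 0.12, adjusted p = 0.00384) and fell with mutations 2 and 3 (-1.91 and -1.51, adjusted p of 4.09e-06 and 2.87e-06). SDC3 and SDC4 fell with mutation 3 (-0.91 and -0.50, adjusted p of 6.01e-07 and 0.000131). NDST1, which sulfates heparan chains, fell with mutation 1 (-0.68, adjusted p = 0.00103) and rose with mutation 2 (0.78, 0.0013).

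Other genes were ranked by how closely their log2 CPM followed each ligand over the 12 libraries, as the root-mean-square difference after centring each gene on its mean. This is a description of 12 libraries in 4 groups, in which many genes follow the same few group patterns. CXCL1 and CXCL3 differed by 0.56, which ranks CXCL1 at 87 of 13744 genes by closeness to CXCL3. CXCL2 was 0.47 from CXCL8, which ranks CXCL8 only at 692 by closeness to CXCL2, and 1.3 from CXCL1. The root-mean-square of CXCL2 around its own mean was 0.59, little more than its difference from CXCL8. The genes closest to CXCL1 were GJA1 (0.33), GPER1 and SIX2, those closest to CXCL3 were BAMBI (0.3), BOC and ACP2, and those closest to CXCL2 were NUDT14 (0.15), PTMA and IFI6. PRKAR2B (0.2), MB21D2 and NUDT8 were nearest to CXCL8, and RASL11A (0.51), C8orf48 and PRKCH to CCL20. ACKR3 was the nearest gene to CCL2 but 1.56 away, followed by BDKRB2 and TP53I11. CXCL16 was closest to NDRG2 (0.33), EHD3 and EPHB3. CX3CL1 was closest to NDRG1 (0.19), SLC16A4 and DNAH11. NDRG1 averaged 585, 3021, 945 and 3136 CPM with wild type and mutations 1, 2 and 3, where CX3CL1 averaged 22.1, 107, 37.9 and 131.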

How the data were processed

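Poly(A) RNA was sequenced in 12 MDA-MB-231 libraries, 3 in each of 4 groups, and the labels' genotype gave the groups. Replicate numbers are the labels' own for wild type, and for mutants only names. Raw counts for 64252 gene IDs were deposited by the authors, who ran featureCounts 2.0.6 on hg38 without strand at a minimum mapping quality of 10, per the file headers. Trimming by cutadapt 1.9.1, quality control by FastQC 0.11.8, and STAR, SAMtools and DESeq2 appear in the submitters' processing notes. Because counting ignored strand, overlapping genes cannot be told apart.

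Counts were fitted with edgeR 4.0.16 (R 4.3.3): filterByExpr (minimum count 10, minimum total 15), TMM scaling, a robust quasi-likelihood fit over all 12 libraries with 8 residual degrees of freedom, and Benjamini-Hochberg adjustment over 15094 genes at 0.05. The script was tested on simulated data. Symbols were found for 87.3% of gene IDs. Coordinates and exon lengths came from GENCODE v29, promoters from RefSeq. CPM used TMM-scaled library sizes, with a prior count of 2 where log2 CPM was compared between genes. For groups without counts the floor was 3 counts in each library, and ratios to 1 to 3 counts have a 95% exact interval, both for counting error only. Alternatives were other scalings, no filter, DESeq2 1.42.0, only the groups compared, and each library left out. Wild-type replicate 1 as the lone wild-type library was added after seeing the data. The 10 members and all gene lists were chosen with earlier results of these data known. Besides the ligands, the text names up to 4 tested genes of each list with the lowest p of the F test over the groups, the ligands' receptors, and the 3 genes of most similar pattern.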

Additional observations from a re-analysis of the deposited data

How the results depend on the processing

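No paired analysis was possible because the mutant libraries carry no replicate number in the labels. Of the single-ligand results under alternatives, 374 against wild type kept direction and call, 30 lost the call, 9 gained one and 9 turned direction, and 344, 48, 26 and 2 did so between mutations. Direction turned in the log2 differences without wild-type replicate 1 with mutation 2 for CXCL1 (-0.73 to 0.19 with 1 library left out), CXCL2 (-0.39 to 0.17) and CCL2 (-0.93 to 6.74) and with mutation 3 for CXCL8 (-0.80 to 0.40), CXCL16 (-0.67 to 3.21) and CCL2 (-7.20 to 0.47). With that replicate as the lone wild-type library, assumed to vary like the other groups, it turned for CXCL8 with mutations 1 (-0.33) and 2 (-0.36) and CX3CL1 with mutation 2 (-0.63). For CXCL8 between mutations 1 and 2 it turned with library totals (-0.17) and without mutation 2 replicate 3 (-0.01 to 0.07 with 1 library left out). The turn for CCL2 with mutation 3 compares 2 counts with 1 (SE 1.41), so no direction can be read from it.

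The number of ligands called higher with mutation 1 against wild type was 4, and 2 without the low-count filter, 1 with DESeq2, 1 with only the groups compared and 2 to 5 with 1 library left out. With mutation 2, 0 higher became 0 to 5 with 1 library left out, and 2 lower became 1 with only the groups compared and 1 to 2 with 1 library left out. With mutation 3, 1 higher became 0 without the filter, with DESeq2 and with only the groups compared, and 1 to 3 with 1 library left out, while 5 lower became 3 with only the groups compared and 4 to 5 with 1 library left out. Between mutations 1 and 2, 2 higher became 1 with DESeq2, 4 with only the groups compared, and 2 to 4 with 1 library left out. For mutation 3 against 2, 0 higher became 1 with only the groups compared and 0 to 1 with 1 library left out, and 4 lower became 2 without the filter and 2 to 6 with 1 library left out. For mutation 1 against 3, 5 higher became 3 with library totals, without the filter and with DESeq2, and 3 to 5 with 1 library left out, and 0 lower became 1 with only the groups compared and 0 to 1 with 1 library left out. With wild-type replicate 1 as the lone wild-type library, lower calls numbered 5, 7 and 8 with mutations 1, 2 and 3 (35.0%, 25.1% and 33.2% of 16095 genes), each including CXCL5, which passed the low-count filter in that fit and not in the one with all libraries. Without CXCL5 they numbered 4, 6 and 7. In the same fit there were 4 higher for mutation 1 against 2, 1 higher for mutation 3 against 2 and 1 lower for mutation 1 against 3. DESeq2 gave an adjusted p for 5 of the 8 tested ligands and none for CXCL16, CCL2 and CX3CL1, so its lower counts are not lost calls. The cause of the other shifts was not tested. Counts given here without a share of all genes have no background beside them, so nothing about the ligands is read from them. Counts of a few reads limit CCL20, CXCL5 and, outside mutation 1, CCL2.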

Other observations

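Of 11 other inducible cytokine genes, 10 were tested against wild type. With mutation 1, 4 were higher and 3 lower (32.5% and 36.5% of all genes), with mutation 2, 0 and 2 (16.9% and 20.1%), and with mutation 3, 3 and 4 (28.1% and 31.2%). Leaving out wild-type replicate 1 made these counts 6 and 4 (40.2% and 42.5%), 5 and 4 (33.0% and 34.9%), and 6 and 4 (38.2% and 38.8%). IL6, a driver of acute inflammation, had 266, 270 and 259 CPM with mutation 1, against 58.2, 17 and 16.9 with wild type, 20 to 22.1 with mutation 2 and 42.2 to 48.4 with mutation 3. Mutation 1 lay above every other library, and IL6 rose there by 3.11 ± 0.40 on the log2 scale (edgeR, adjusted p = 4.71e-05), or by 3.97 ± 0.06 without wild-type replicate 1. Without that library IL6 also passed with mutation 2 (0.34, adjusted p = 0.000104) and mutation 3 (1.42, 3.45e-42). IL24 rose with mutation 1 (3.14 ± 0.27, adjusted p = 1.83e-06) and mutation 3 (4.03 ± 0.27, 6.76e-07). CSF3, the granulocyte growth factor, had 16.1 to 30.9 CPM with wild type and 0.211 to 0.269 with mutation 1, without overlap. It fell with every mutation (-6.67, -1.54 and -2.78, adjusted p of 2.69e-08, 0.0003 and 2.43e-06), as did IL11 (-0.69, -2.94 and -2.48, adjusted p of 9.78e-06, 2.23e-08 and 9.42e-09).

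Factors that bind or cut AU-rich messages were all tested, 12 genes in number. With mutation 1, 5 were higher and 3 lower, with mutation 2, 2 and 0, and with mutation 3, 4 and 4, beside the same shares of all genes. The counts were 5 and 5, 5 and 3, and 5 and 4 without wild-type replicate 1. ZFP36 (tristetraprolin), which triggers decay of such messages, rose with mutation 1 (log2 1.96 ± 0.18, adjusted p = 3.28e-06) and mutation 3 (1.34 ± 0.18, 8.98e-05). ZC3H12A, an endonuclease of inflammatory messages, fell with mutation 1 (-1.38 ± 0.06, adjusted p = 1.1e-08). KHSRP fell with mutation 3 (-0.45 ± 0.04, adjusted p = 9.03e-06), and AUH rose with mutations 1 and 3 (1.05 and 0.92, adjusted p of 1.07e-05 and 4.52e-05).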
